A study of Mus musculus with 8 samples.

Results

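The genes described here are 34 neuropeptide precursors, granins and peptide-processing enzymes, measured by RNA-seq in the lumbar spinal cord of male SOD1G93A mice with and without deletion of *Ager* from *Cx3cr1*-expressing cells. They were chosen by name from a list, not by their values, though earlier results of these data were known. They are 34 of the 55291 genes in the count table. All 34 passed the filter on low counts, as did 19470 genes in all. The list holds 8 peptides linked to primary afferents or motor neurons, 13 peptides of dorsal horn or other neurons, 4 opioid family precursors, 5 granins and 4 processing enzymes.

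SOD1G93A mice carry a mutant human SOD1 transgene and lose motor neurons, and *Ager* encodes RAGE, the receptor for advanced glycation end products. Tissue came from 4 SOD1G93A Agerfl/fl Cx3cr1Cre/+ mice (E1776, E5231, E5248 and E5568, called *Ager*-deleted) and 4 SOD1G93A *Ager*+/+ Cx3cr1Cre/+ mice (E5386, E5642, E6578 and E6732, called Cre-expressing controls), all male and on a C57BL/6J background. Every mouse carried Cre under *Cx3cr1*, which microglia and other myeloid cells use, in place of 1 *Cx3cr1* allele. By the labels every mouse was given 0.2 µg tamoxifen in each of 5 intraperitoneal injections at 12 weeks of age and was 120 days old at collection, whereas the text of the study gives a slightly later age for the deletion and places tissue collection at end-stage. No mouse without the SOD1 transgene was analysed here, so the comparison is of *Ager* deletion within the disease model. Each library was whole lumbar cord of 1 mouse, so fewer cells of a type and less RNA per cell cannot be told apart.

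Neuropeptides are made as larger precursor proteins, packed into dense-core vesicles and cut out inside them on the way to release. The prohormone convertases cut precursors at basic residues, carboxypeptidase E removes the basic residues left behind, and peptidylglycine alpha-amidating monooxygenase gives many peptides the amide they need to be active. Granins are acidic vesicle proteins that aggregate with the cargo and are themselves cut into peptides. In the spinal cord, afferents release calcitonin gene-related peptide and substance P into the dorsal horn, local inhibitory and excitatory neurons there make enkephalin, dynorphin, somatostatin and neuropeptide Y, and motor neurons also make calcitonin gene-related peptide.

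Many peptide genes are known to respond to cyclic AMP through the palindrome TGACGTCA, the cyclic AMP response element, so the promoters of the 34 genes were searched for it. RefSeq promoters (GRCm38.p6) that run from 250 bases before to 50 bases after each transcription start were at hand for 27 of the 34 genes, as 30 promoters. *Calcb*, *Penk*, *Crh*, *Grp*, *Vgf*, *Pnoc* and *Cpe* had no entry. The element stood in 6 of the 30 promoters (20%), against 588 of all 32851 promoters of the same length (1.79%). Since it is its own reverse complement, each occurrence counts on both strands. A window of 60 bases around each of the 6 follows, 5′ to 3′ in the direction of transcription, to show the shared 8 bases, in capitals, beside their unlike flanks.
Cartpt (GRCm38.p6, chr13:99900762-99900821, reverse strand): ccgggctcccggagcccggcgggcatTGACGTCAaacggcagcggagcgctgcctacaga
Chgb (GRCm38.p6, chr2:132781544-132781603, forward strand): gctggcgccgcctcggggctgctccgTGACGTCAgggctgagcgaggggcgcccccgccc
Pcsk1 (GRCm38.p6, chr13:75089753-75089812, forward strand): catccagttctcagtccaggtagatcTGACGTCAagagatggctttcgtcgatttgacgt
Scg2 (GRCm38.p6, chr1:79440061-79440120, reverse strand): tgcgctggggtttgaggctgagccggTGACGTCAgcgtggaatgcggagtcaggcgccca
Sst (GRCm38.p6, chr16:23890859-23890918, reverse strand): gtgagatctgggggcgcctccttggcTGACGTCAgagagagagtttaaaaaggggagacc
Ucn (GRCm38.p6, chr5:31138906-31138965, reverse strand): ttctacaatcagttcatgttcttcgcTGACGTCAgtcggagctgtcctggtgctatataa
The 6 genes span 3 of the 5 roles: peptide precursors (*Cartpt*, the precursor of cocaine- and amphetamine-regulated transcript peptide; *Sst*, somatostatin; *Ucn*, urocortin), granins (*Chgb*, chromogranin B, and *Scg2*, secretogranin II) and a convertase (*Pcsk1*). The first base of the element lay 44 (*Ucn*) to 112 (*Cartpt*) bases before the RefSeq start. The gene bounds used elsewhere here are from GENCODE M21, and the 2 sources do not always share a start. The windows of *Cartpt*, *Chgb*, *Scg2* and *Sst* lie inside the GENCODE bounds of their genes. For 24 of the 30 promoters the first transcribed bases matched a GENCODE transcript. A match is a description of letters and says nothing of binding.

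The promoter of *Chgb* is given whole, since *Chgb* was the only gene of the 34 whose values did not overlap between genotypes. Of all genes tested, 3.88% did not overlap, and the lack of overlap in *Chgb* did not hold under another scaling, given below. The promoter lies at chr2:132781392-132781691 on the forward strand of GRCm38.p6, with the element in capitals. GENCODE M21 starts the gene further upstream, at 132781278.
Chgb: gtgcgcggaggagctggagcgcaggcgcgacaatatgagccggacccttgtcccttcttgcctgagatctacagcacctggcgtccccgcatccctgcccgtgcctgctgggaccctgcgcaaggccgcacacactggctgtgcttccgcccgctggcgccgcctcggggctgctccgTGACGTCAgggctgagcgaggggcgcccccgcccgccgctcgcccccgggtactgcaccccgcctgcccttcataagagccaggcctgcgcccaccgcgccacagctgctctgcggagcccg
The motif TATAAA, searched on the sense strand with its first base 40 to 20 bases before the start, was not in that window of the *Chgb* promoter. It was in 3 of the 30 promoters (10%; *Nppc*, *Pomc* and *Vip*), against 655 of all 32851 (1.99%).

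Libraries held 31148047 to 40324897 counts on genes, and the floor of 3 counts used here equals 0.0729 to 0.0975 CPM (counts scaled to the library total and the normalization factor); such floors cover counting error only. Values below are CPM after TMM normalization (trimmed mean of M values), listed in the order of the mice above; where 4 values are set beside 4 others, those of the *Ager*-deleted mice come first. *Ager* was at 0.889, 1.51, 1.02 and 1.34 CPM in *Ager*-deleted mice and 1.53, 2.22, 2.18 and 2.41 CPM in controls. Every *Ager*-deleted mouse was below every control, with a log2 fold change of -0.81 (SE 0.22; edgeR's exact test, adjusted p = 0.252). Several control libraries stood apart in transcripts of other tissues. The summed level of the 12 skeletal muscle markers was 974 CPM in E5386 and 1525 CPM in E5642, against 9.42 to 29.4 CPM in the other mice. Of 7 liver markers, 4 were at 0 counts in some mouse, and the sum over all 7 was 612 CPM in E6732 against 1.34 to 2.66 CPM elsewhere. The 5 markers of Schwann cells, the myelinating cells of nerve roots, summed to 8.56 CPM in E5386 and to 208 to 758 CPM in the remaining 7. The 6 adipocyte markers, of which *Cidec* and *Lep* were at 0 counts in some mouse, summed to 132 CPM in E5386 and to 0.940 to 6.73 CPM in the others.

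The tissue label was checked against markers of spinal neurons. All 10 pan-neuronal and transmitter markers, all 6 motor neuron markers and all 5 dorsal horn markers had over 3 counts in every mouse. Of 8 sensory ganglion markers, which summed to 8.15 to 10.8 CPM, 4 passed the filter, and *Scn10a*, *Scn11a*, *Mrgprd* and *Prdm12* were at 0 counts in at least 1 mouse. The motor neuron marker score, the mean log2(CPM + 1) over its genes, was 3.53 ± 0.23 (SD, n = 4) in the *Ager*-deleted mice and 3.65 ± 0.19 (n = 4) in the controls (exact two-sided permutation test, p = 0.486). The dorsal horn score was 3.55 ± 0.091 and 3.45 ± 0.030 (exact two-sided permutation test, p = 0.0857). The pan-neuronal score was 7.81 ± 0.17 and 7.74 ± 0.12 (exact two-sided permutation test, p = 0.600). For 4 mice against 4 the smallest p this test allows is 0.0286. The dorsal horn scores were 3.53, 3.68, 3.46 and 3.54 in *Ager*-deleted mice and 3.47, 3.43, 3.41 and 3.47 in controls. E1776, E5231 and E5568 were above every control. Of the 5 dorsal horn markers, 1 (*Lbx1*) did not overlap between genotypes and was higher in *Ager*-deleted mice. Of all genes tested, 3.88% did not overlap. In the plot of marker scores, the muscle values of E5386 and E5642, the liver value of E6732 and the Schwann cell value of E5386 lie far from the rest.

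**Figure D1:**
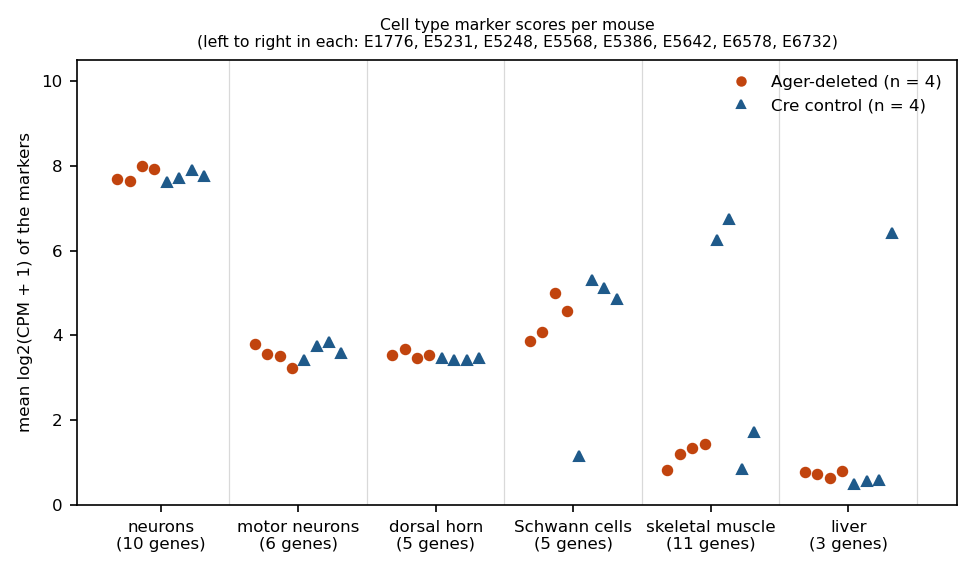
Marker scores per mouse: each point is the mean log2(CPM + 1) of the tested markers of a cell type or tissue in 1 mouse, circles for the 4 *Ager*-deleted mice and triangles for the 4 Cre controls. Controls E5386 and E5642 stand at 6.24 and 6.76 for skeletal muscle, against 0.82 to 1.73 in the other 6 mice.

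The 34 genes spanned a wide range of levels. To compare levels between genes, CPM was divided by the length of each gene's merged exons in kilobases (CPM per kb), and the mean ± SD over all 8 mice is given. *Cpe*, carboxypeptidase E, was the highest at 622 ± 43.3 CPM per kb, followed by the granins *Scg3*, secretogranin III, at 213 ± 21.7 and *Scg2* at 139 ± 15.7 CPM per kb. *Penk*, the enkephalin precursor, was the highest precursor of a classical neuropeptide at 97.2 ± 10.51 CPM per kb, with *Sst* at 86.8 ± 13.0 CPM per kb. Across mice, *Penk* ran from 82.9 to 113, *Sst* from 70.7 to 111 and *Chgb* from 79.3 to 89.2 CPM per kb, so these neighbours in the order overlapped. *Chga*, chromogranin A, was at 72.2 ± 6.99 and *Vgf*, a granin-like precursor that neurotrophins induce, at 45.3 ± 3.98 CPM per kb.

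Below the granins in the order came mainly peptides of dorsal horn neurons. *Npy*, neuropeptide Y, was at 23.8 ± 4.45 CPM per kb and *Tac2*, the precursor of neurokinin B, at 22.5 ± 2.61 CPM per kb. *Cck*, cholecystokinin, and *Nts*, neurotensin, reached 14.1 ± 1.67 and 12.2 ± 1.35 CPM per kb. *Calca*, which encodes calcitonin and calcitonin gene-related peptide, was lower per kb at 9.84 ± 1.92 CPM per kb. *Tac1*, the precursor of substance P, was at 6.801 ± 1.04 CPM per kb. Both peptides are known from afferents, but these are RNA levels in the cord, and the cells that made them were not determined. The order rests on the division by length. In CPM the means of *Ager*-deleted mice and controls were 23.3 and 22.9 for *Tac1* and 16.0 and 17.1 for *Calca*. Those of *Npy* were 14.6 and 12.3 CPM, while *Tac2* stayed above all 3 at 31.6 and 30.5 CPM. At the low end stood *Ucn* at 1.10 ± 0.206, *Pomc*, the precursor of endorphin and melanocortins, at 0.736 ± 0.268 and *Vip*, vasoactive intestinal peptide, at 0.475 ± 0.110 CPM per kb. *Ucn* was counted 14 to 24 times per mouse, so even the rarest of the 34 by count was above 3 counts in all 8 mice. The plot of levels per mouse shows both genotypes side by side over this range.

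**Figure D2:**
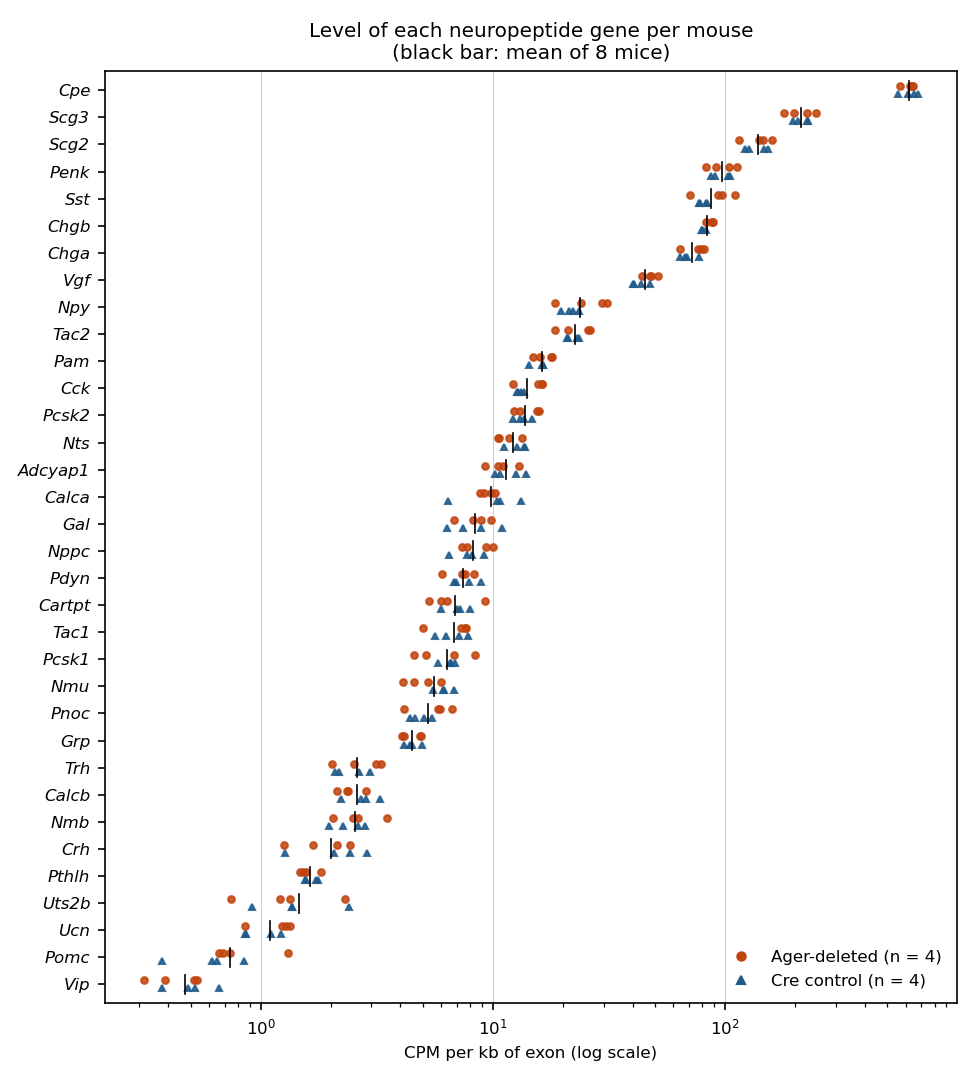
Level of each of the 34 genes in CPM per kb of exon (log axis), ordered by the mean of 8 mice (black bar), with circles for the 4 *Ager*-deleted mice and triangles for the 4 Cre controls. Levels run from 622 for *Cpe* to 0.475 for *Vip*. The ranges of the 2 genotypes overlap in every row but that of *Chgb*, where 3.88% of all genes tested do not overlap.

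None of the 34 genes passed the test between genotypes. The count was 0 in edgeR's exact test at an adjusted p under 0.05, where 14 of 19470 genes (0.0719%) passed. With common and tagwise dispersions in that test it was also 0 (78 genes, 0.401%), as it was in edgeR's quasi-likelihood test (1 gene, 0.00514%). Even without adjustment, 0 of the 34 had p under 0.05 in the exact test or in the quasi-likelihood test, where 4.26% and 6.71% of all genes did. Adjusted p-values were 1 for all of the 34 in the exact test, and 0.743 (*Nmu*) was the lowest in the quasi-likelihood test. Log2 fold changes of *Ager*-deleted over control mice were positive for 19 genes and negative for 15, from -0.31 (*Nmu*) to 0.44 (*Pomc*). Their median was 0.027, against 0.0069 over all genes tested.

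The precision of these differences can be read from their 95% intervals. The interval lay within ±0.5 log2 units for 23 of the 34 genes and within ±1 for 33, and the bound farthest from 0 was 1.11 for *Pomc*, the exception. The fold change itself was under 0.25 log2 units in size for 32 genes. With the controls E6578 and E6732 only, leaving out both controls with muscle transcripts, the number called remained 0. The spread between mice of a genotype, pooled over both on the log2(CPM + 1) scale, had a median SD of 0.18 over the 34 genes against 0.13 over all genes tested. Within the 34 it ran from 0.038 (*Chgb*) to 0.34 (*Uts2b*).

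**Figure D3:**
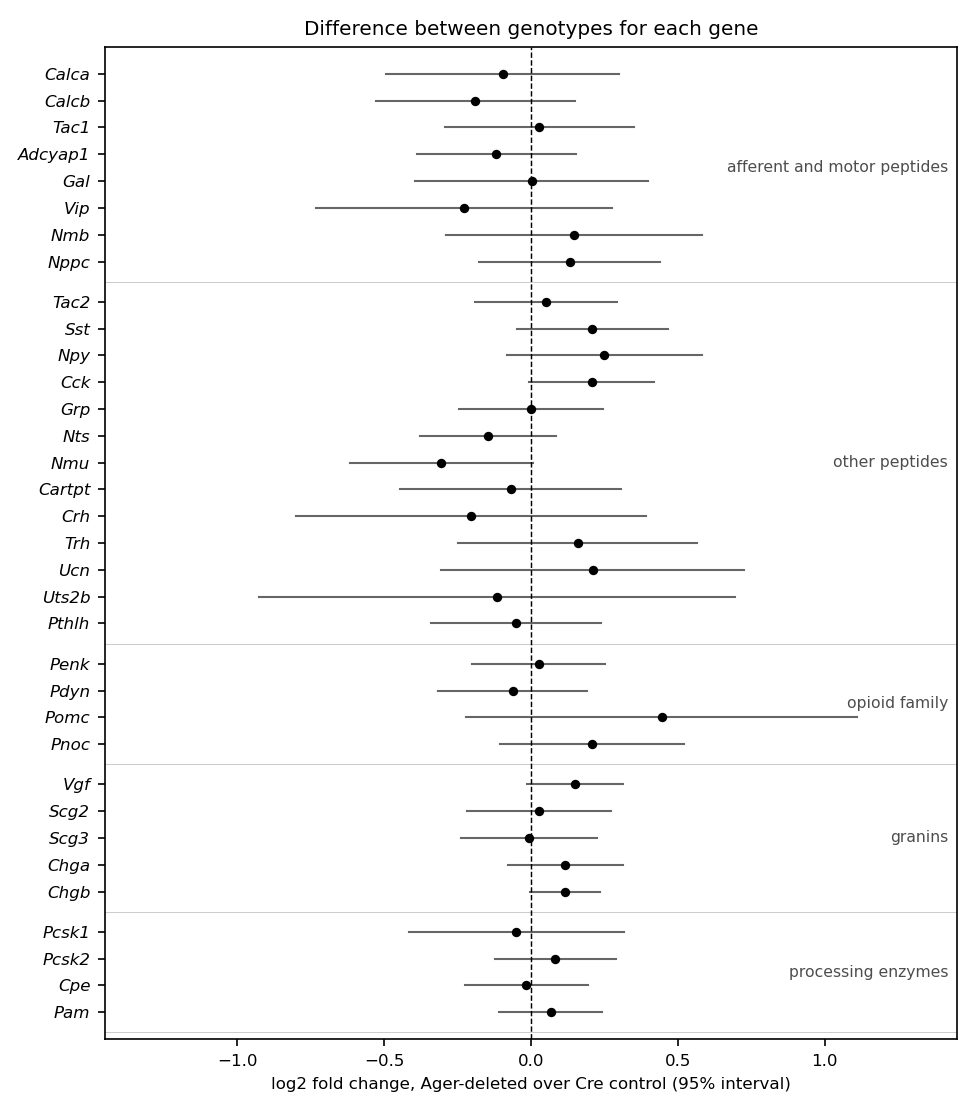
Log2 fold change of *Ager*-deleted over Cre control mice for each of the 34 genes, grouped by role, with the 95% interval of the quasi-likelihood fit (4 mice per genotype). Every interval includes 0, and those of *Pomc* and *Uts2b* are the widest.

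Among the 8 peptides linked to afferents or motor neurons, 4 had positive and 4 negative fold changes, with a median of -0.047. *Calca* (chr7:114631478-114636357, reverse strand) was at 15.5, 14.9, 16.5 and 17.1 CPM in *Ager*-deleted mice and 10.7, 18.1, 22.2 and 17.5 CPM in controls. The controls held both the lowest value, in E5386, and the 3 highest, so the *Ager*-deleted mice lay wholly inside their range. The mean was 16.0 ± 1.00 CPM (SD, n = 4) in the *Ager*-deleted mice and 17.1 ± 4.74 CPM (n = 4) in the controls, a log2 fold change of -0.10 (95% interval -0.49 to 0.30). E5386 was also the mouse with the lowest Schwann cell and the highest adipocyte markers and was 1 of the 2 with muscle transcripts, and their part in its *Calca* value was not tested. With the controls E6578 and E6732 only, a fit added after seeing the data, *Calca* had a log2 fold change of -0.31. Its unadjusted p was 0.0327 in edgeR's exact test (adjusted p = 1). *Calca* was the only gene of the 34 with an unadjusted p under 0.05 in this fit. The share of all genes tested with such a p in this fit is not given here. The fit left out E5642, at 18.1 CPM of *Calca*, and kept E6732, which held the liver transcripts.

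*Calcb* (chr7:114718643-114723365, forward strand), which encodes the beta form of the same peptide, was at 3.00, 2.696, 3.58 and 2.97 CPM and 2.82, 3.61, 4.13 and 3.43 CPM in the same order. As in *Calca*, the highest value was that of control E6578, and the log2 fold change was -0.19 (95% interval -0.53 to 0.15). *Calca* and *Calcb* are paralogs on chromosome 7, and reads from sequence they share could have been assigned to either or dropped. *Tac1* was at 16.9, 24.7, 25.7 and 26.00 CPM in *Ager*-deleted mice and 19.2, 26.6, 24.3 and 21.4 CPM in controls. E1776 was the lowest of all 8 mice, while the other *Ager*-deleted mice were inside the range of the controls. The log2 fold change of *Tac1* was 0.029 with E1776 and 0.16 without it.

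*Adcyap1* encodes pituitary adenylate cyclase-activating polypeptide, made by sensory and some motor neurons, and was the most counted of the 8 peptides. It was at 34.8, 48.8, 39.9 and 41.8 CPM in *Ager*-deleted mice and 40.5, 52.6, 47.7 and 38.6 CPM in controls, with E1776 again the lowest and control E5642 the highest. *Gal*, galanin, a peptide that injured sensory and motor neurons make, was at 7.01, 7.71, 5.36 and 6.46 CPM and 5.85, 8.68, 7.02 and 5.01 CPM. The genotype means of *Gal* were 6.64 ± 0.991 and 6.64 ± 1.59 CPM (SD, n = 4 each), a log2 fold change of 0.0023 (95% interval -0.39 to 0.40). *Vip*, also known as a peptide of injured sensory neurons, ranged from 1.07 to 2.25 CPM over the 8 mice and was counted 42 to 73 times. Its fold change of -0.23 log2 units had an interval of -0.73 to 0.27.

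*Nmb*, neuromedin B, which signals itch in the dorsal horn, ranged from 1.56 to 2.78 CPM, with E5231 the highest and control E6732 the lowest, and the interval of its log2 fold change was -0.29 to 0.58. It overlaps Sec11a on the same strand in the annotation, so its reads may be shared. *Nppc*, the precursor of C-type natriuretic peptide, which guides the branching of sensory axons in development, was at 9.78, 7.66, 8.10 and 10.4 CPM and 8.45, 6.73, 8.09 and 9.53 CPM. E1776 and E5568 were above all 4 controls and E5231 and E5248 were not, and the log2 fold change was 0.13 (95% interval -0.18 to 0.44).

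The 13 peptides of dorsal horn and other neurons had 6 positive and 7 negative fold changes and a median of -0.00043. *Sst*, made by excitatory dorsal horn neurons and inhibitory to their targets, was at 51.0, 69.9, 67.6 and 80.02 CPM in *Ager*-deleted mice and 55.7, 56.3, 60.5 and 59.8 CPM in controls. The *Ager*-deleted mice held the lowest value, in E1776, and the 3 highest, the reverse of *Calca*. The means were 67.1 ± 12.1 and 58.1 ± 2.43 CPM (SD, n = 4 each), with a log2 fold change of 0.21 (95% interval -0.049 to 0.47; edgeR's exact test, adjusted p = 1). Without E1776 the log2 fold change was 0.32 (adjusted p = 0.562 in the same test).

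*Npy* marks inhibitory dorsal horn neurons that gate touch and itch. It showed the same arrangement of mice, at 10.54, 17.6, 13.5 and 16.7 CPM in *Ager*-deleted mice and 11.1, 12.6, 13.3 and 12.1 CPM in controls. E1776 was the lowest of the 8 and E5231, E5248 and E5568 were above every control, for a log2 fold change of 0.25 (95% interval -0.083 to 0.58). *Cck*, found in excitatory neurons of the deep dorsal horn, was at 20.4, 21.2, 16.0 and 21.2 CPM and 17.2, 16.7, 17.7 and 16.8 CPM. Here E5248 was the lowest of all 8 mice, and the other 3 *Ager*-deleted mice were above all controls. The log2 fold change of *Cck* was 0.21 (95% interval -0.0067 to 0.42), and without E5248 it was 0.29 (edgeR's exact test, adjusted p = 0.419).

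*Nmu* (chr5:76333495-76363788, reverse strand), neuromedin U, a peptide linked to pain sensitivity, had the most negative fold change of the 34 genes. It was at 3.40, 4.93, 4.37 and 3.77 CPM in *Ager*-deleted mice and 5.63, 5.09, 5.07 and 4.57 CPM in controls. Only E5231 lay inside the range of the controls, and the other 3 *Ager*-deleted mice lay below it. The means were 4.12 ± 0.673 and 5.09 ± 0.434 CPM (SD, n = 4 each), a log2 fold change of -0.31 (95% interval -0.62 to 0.0055; exact two-sided permutation test, p = 0.0571). In edgeR's quasi-likelihood test its unadjusted p was 0.0536 and its adjusted p 0.743. Genes on the other strand overlap *Nmu*, *Penk*, *Grp*, *Scg3*, *Pcsk2* and *Pam*, and the strand setting of the counting is not given in the sources used here.

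*Nts*, which marks a set of excitatory dorsal horn neurons, was at 14.7, 16.7, 13.2 and 13.3 CPM and 15.9, 17.2, 17.03 and 13.9 CPM. E5248 and E5568 were below every control, and the log2 fold change was -0.15 (95% interval -0.38 to 0.084). *Tac2*, made by excitatory neurons of the inner dorsal horn, was at 25.6, 36.3, 29.1 and 35.4 CPM and 28.8, 32.3, 31.9 and 29.0 CPM. The *Ager*-deleted mice were the more scattered, with E1776 the lowest and E5231 and E5568 the highest of the 8, and the log2 fold change was 0.052 (95% interval -0.19 to 0.29). *Grp*, gastrin-releasing peptide, a transmitter of itch, had equal means of 6.64 ± 0.657 CPM and 6.64 ± 0.495 CPM (SD, n = 4 each), and its interval was -0.25 to 0.24.

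*Cartpt*, known from preganglionic and some dorsal horn neurons, ranged from 6.81 to 11.8 CPM, with *Ager*-deleted mice at both ends (E1776 lowest, E5231 highest), and its log2 fold change was -0.070 (95% interval -0.45 to 0.31). *Trh*, thyrotropin-releasing hormone, which also acts on motor neurons, was at 2.82, 4.37, 3.499 and 4.57 CPM and 4.08, 2.90, 3.67 and 3.02 CPM, with a log2 fold change of 0.16 (95% interval -0.25 to 0.57). *Crh*, corticotropin-releasing hormone, ran from 1.66 to 3.803 CPM, and E5248 and control E6732 shared the low end, with an interval of -0.80 to 0.39 for the log2 fold change.

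*Ucn*, a relative of *Crh* known from brainstem neurons, was at 0.432, 0.647, 0.677 and 0.620 CPM and 0.438, 0.432, 0.618 and 0.559 CPM. At 14 to 24 counts per mouse, counting error alone was large, and the interval of its log2 fold change was -0.31 to 0.73. *Uts2b*, the precursor of urotensin-related peptide, made in motor neurons, ran from 0.620 to 2.02 CPM, with E5231 lowest and control E6578 highest, for an interval of -0.93 to 0.70. Its relative *Uts2*, which was not among the 34 genes, is described with the other precursors. *Pthlh*, parathyroid hormone-related protein, ranged narrowly from 2.40 to 2.95 CPM, and its log2 fold change was -0.051 (95% interval -0.34 to 0.24).

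Of the 4 opioid family precursors, 3 had positive and 1 a negative fold change, with a median of 0.12. *Penk* (chr4:4133531-4138819, reverse strand), whose enkephalins act on delta and mu receptors, was at 136, 171, 150.2 and 185 CPM in *Ager*-deleted mice and 142, 168, 171 and 149 CPM in controls. *Ager*-deleted mice were at both ends, E1776 lowest and E5568 highest. The means were 160.3 ± 21.8 and 157 ± 14.4 CPM (SD, n = 4 each), a log2 fold change of 0.026 (95% interval -0.20 to 0.25). *Pdyn*, whose dynorphins act on kappa receptors, was at 17.4, 21.9, 21.2 and 23.9 CPM and 19.7, 25.6, 22.9 and 19.96 CPM. Again E1776 was the lowest, and control E5642 was the highest, with a log2 fold change of -0.063 (95% interval -0.32 to 0.19).

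*Pnoc*, the precursor of nociceptin, was at 8.97, 12.8, 12.6 and 14.4 CPM in *Ager*-deleted mice and 10.01, 11.8, 10.9 and 9.53 CPM in controls. It was arranged as *Sst* and *Npy* were, with E1776 the lowest and the other 3 *Ager*-deleted mice above every control, and its log2 fold change was 0.21 (95% interval -0.11 to 0.52). *Pomc* (chr12:3954951-3960642, forward strand) had the largest fold change of the 34 genes and the interval bound farthest from 0. It was at 1.73, 0.970, 0.875 and 0.905 CPM and 1.12, 0.494, 0.813 and 0.851 CPM, or 16 to 68 counts per mouse. The high value was that of E1776, and the other 3 *Ager*-deleted mice were inside the range of the controls. Its log2 fold change of 0.44 (95% interval -0.22 to 1.11; exact two-sided permutation test, p = 0.314) was 0.15 without E1776.

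Of the 5 granins, 4 had positive fold changes and the median was 0.12. *Chgb* (chr2:132781278-132795079, forward strand) was at 240.2, 242, 227 and 245 CPM in *Ager*-deleted mice and 219, 218, 217 and 226 CPM in controls. All 4 *Ager*-deleted mice were above all 4 controls, by 227 against 226 CPM at the point where the groups came closest. The means were 239 ± 7.61 and 220.1 ± 4.07 CPM (SD, n = 4 each), a log2 fold change of 0.12 (SE 0.054, 95% interval -0.0030 to 0.24; exact two-sided permutation test, p = 0.0286, as small as this test allows). Any gene without overlap has this permutation p, so it adds nothing to the lack of overlap. By edgeR's exact test its adjusted p was 1, and it was 0.746 by the quasi-likelihood test, so *Chgb* was not called. *Chgb* was the 1 gene of 34 without overlap, where 1.97% of all genes tested were without overlap and higher, 1.91% without overlap and lower, and 3.88% either way. With size factors by relative log expression in place of TMM, the *Chgb* values of the genotypes did overlap. Its spread within genotypes was small, at the 0.765 percentile of all genes tested.

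*Vgf* (chr5:137026392-137033351, forward strand) was at 142, 141, 130.0 and 153 CPM in *Ager*-deleted mice and 120.4, 142, 129 and 119 CPM in controls. Control E5642 lay among the *Ager*-deleted mice and the other 3 controls lay below all of them, for a log2 fold change of 0.15 (95% interval -0.013 to 0.31; exact two-sided permutation test, p = 0.0857). *Chga* was at 211, 176, 218 and 223 CPM and 185, 176, 213 and 189 CPM. Its genotypes overlapped widely, with E5231 and E5642 alike at the low end, and the log2 fold change was 0.12 (95% interval -0.078 to 0.31).

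*Scg2*, which is cut to secretoneurin, was at 289.9, 366, 351 and 402 CPM in *Ager*-deleted mice and 307, 370.0, 385 and 319.7 CPM in controls, with E1776 lowest and E5568 highest and a log2 fold change of 0.028 (95% interval -0.22 to 0.27). *Scg3*, which holds granin aggregates to the vesicle membrane, was at 617, 675, 493 and 545 CPM and 621, 619.8, 564 and 536 CPM. *Scg3* was highest in E5231 and lowest in E5248, with E1776 beside the higher controls, and its log2 fold change was -0.0067 (95% interval -0.24 to 0.23).

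The 4 processing enzymes had 2 positive and 2 negative fold changes and a median of 0.026. *Pcsk1* (chr13:75089826-75134861, forward strand), the convertase that acts early in the secretory pathway, was at 25.6, 29.0, 47.2 and 38.2 CPM in *Ager*-deleted mice and 32.5, 38.7, 36.6 and 37.2 CPM in controls. The *Ager*-deleted mice had both the lowest value, in E1776, and the highest, in E5248, and the SD was 9.68 CPM among them against 2.64 CPM among the controls (n = 4 each). The log2 fold change was -0.050 (95% interval -0.42 to 0.32). *Pcsk2*, the convertase of mature vesicles that makes many small peptides, was at 97.9, 103, 126 and 123 CPM and 96.5, 103, 116 and 108 CPM. E5248 and E5568 were above all controls, E1776 and E5231 were not, and the log2 fold change was 0.083 (95% interval -0.12 to 0.29).

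*Cpe* (chr8:64592542-64693054, reverse strand) was at 1631, 1686, 1475 and 1668 CPM in *Ager*-deleted mice and 1597, 1708, 1775 and 1449 CPM in controls. The controls held both the highest and the lowest mouse, and the log2 fold change of -0.015 had an interval of -0.23 to 0.19. *Pam*, the amidating enzyme, was at 177, 190.0, 211 and 213 CPM and 169.5, 195, 194 and 195 CPM. Control E5386 was below the other 3 controls, which lay within 194 to 195 CPM, and the log2 fold change was 0.068 (95% interval -0.11 to 0.24). Annotated genes overlap *Pam* on its own strand too, so its reads may be shared.

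Mice of the same genotype lay on opposite sides for many of the 34 genes. E1776 was the lowest of the 8 mice for 16 of the 34 genes, among them 8 of the 13 dorsal horn and other peptides and 3 of the 4 opioid precursors, and the highest for 1, *Pomc*. E5568, of the same genotype, was the highest for 11 genes and the lowest for 0. Controls E6578 and E5386 stood on opposite sides too, with 25 and 8 of the 34 genes above the mean of the 8 mice. The median deviation of the 34 genes from that mean was -0.14 log2 units in E1776, 0.12 in E5568, -0.11 in E5386 and 0.064 in E6578. E1776 had the highest summed motor neuron markers of its genotype (146 CPM) and E5568 the lowest of all 8 mice (90.6 CPM). Their pan-neuronal sums were 2946 and 3511 CPM. E5231 had the lowest pan-neuronal sum of the 8 mice (2791 CPM) and a median deviation of 0.085 log2 units. By the pan-neuronal score the lowest mouse was E5386, at 7.618 against 7.634 in E5231. E5248 had the highest sum (3806 CPM) and a median deviation of -0.018. Control E5386 was at 2924 CPM and E6578 at 3595 CPM, in the order of their deviations. The reverse held for E5642 (3153 CPM, deviation 0.069) and E6732 (3270 CPM, deviation -0.078). The part of cell makeup in these shifts was not tested. The heat map of deviations shows the E1776 column blue over most peptides and red at *Pomc*.

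**Figure D4:**
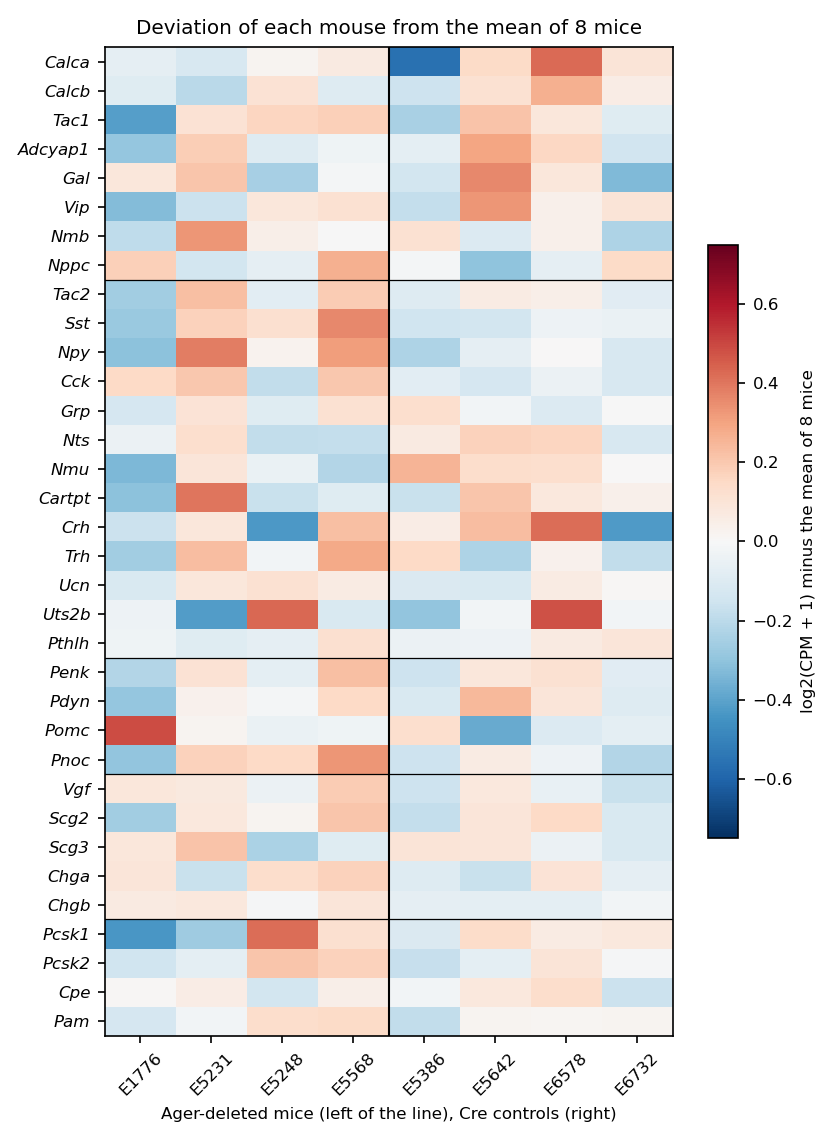
Deviation of each mouse from the mean of 8 mice on the log2(CPM + 1) scale, for the 34 genes in rows grouped by role and the mice in columns (*Ager*-deleted left of the vertical line, Cre controls right). E1776 is the lowest mouse for 16 genes and E5568 the highest for 11.

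Genes around the 34 in the peptide system were examined as 4 further lists. Of 47 peptide receptors and their partner proteins 41 were tested, and 30 had positive and 11 negative fold changes, with a median of 0.10 and 0 called. The highest by level were *Ntsr2*, a neurotensin receptor of astrocytes, at 65.6 ± 5.82 CPM per kb, *Adcyap1r1*, the receptor of the *Adcyap1* peptide, at 50.1 ± 3.23 CPM per kb, and *Ramp1*, the partner of *Calcrl*, at 27.2 ± 3.196 CPM per kb. *Calcrl*, which with *Ramp1* forms the receptor for calcitonin gene-related peptide, is also found in vessels. It was the 1 receptor gene of 41 with an unadjusted p under 0.05 in edgeR's exact test, where 4.26% of all genes tested had one. In the quasi-likelihood test 3 of the 41 had such a p, against 6.71% of all genes tested. *Calcrl* was at 17.4, 15.0, 16.8 and 13.96 CPM in *Ager*-deleted mice and 16.8, 21.2, 17.2 and 21.6 CPM in controls, where E5642 and E6732 were high. Its log2 fold change was -0.28 (edgeR's exact test, unadjusted p = 0.0417, adjusted p = 1). *Ramp1* was at 85.5, 97.3, 66.7 and 86.4 CPM and 80.4, 82.2, 87.2 and 70.8 CPM, a log2 fold change of 0.068 (95% interval -0.17 to 0.31). *Sstr1*, a somatostatin receptor, named after its values were seen, was the 1 receptor of 41 whose genotypes did not overlap, where 3.88% of all genes tested did not. It was at 7.29, 7.28, 7.03 and 8.06 CPM and 5.88, 6.02, 6.21 and 6.95 CPM (log2 fold change 0.24; edgeR's exact test, adjusted p = 1).

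Other vesicle and processing genes numbered 24, of which 23 were tested, 15 with positive and 8 with negative fold changes, a median of 0.058 and 0 called. The highest was *Pcsk1n*, which encodes proSAAS, an inhibitor of the *Pcsk1* convertase, at 148 ± 26.7 CPM per kb. It was at 355, 384, 291 and 431 CPM in *Ager*-deleted mice and 267, 288, 300.3 and 282 CPM in controls. All *Ager*-deleted mice but E5248 were above every control, and the log2 fold change was 0.36 (SE 0.11, 95% interval 0.12 to 0.60). It had the lowest p of the whole peptide system in edgeR's exact test, 0.00351 unadjusted and 0.474 adjusted over all genes. Next by level were *Resp18*, an endocrine vesicle protein, at 101 ± 11.4 CPM per kb and *Scg5*, the chaperone of the *Pcsk2* convertase, at 76.6 ± 9.82 CPM per kb, with log2 fold changes of 0.14 and 0.15 (95% intervals -0.065 to 0.35 and -0.089 to 0.38).

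Among 34 other peptide precursors only 13 passed the filter, with 6 positive and 7 negative fold changes, a median of -0.026 and 0 called. The highest was *Uts2*, urotensin II, known from motor neurons of the cord, at 24.9 ± 4.86 CPM per kb. It was at 14.6, 8.36, 16.96 and 14.9 CPM in *Ager*-deleted mice and 12.4, 12.5, 15.2 and 12.4 CPM in controls, E5231 lowest and E5248 highest, with a log2 fold change of 0.064 (95% interval -0.35 to 0.48). *Apln*, apelin, was at 11.6 ± 1.30 and *Npb*, neuropeptide B, at 3.18 ± 0.540 CPM per kb, with log2 fold changes of 0.012 and -0.20. Some precursors known from the hypothalamus were named after their values were seen. *Agrp*, agouti-related peptide, and *Gnrh1*, gonadotropin-releasing hormone, passed the filter at 13 to 42 and 8 to 26 counts per mouse, with log2 fold changes of 0.54 and 0.30 (95% intervals -0.074 to 1.15 and -0.30 to 0.90). *Avp*, vasopressin, *Oxt*, oxytocin, *Hcrt*, orexin, and *Pmch*, melanin-concentrating hormone, did not pass, with at most 2, 5, 7 and 4 counts in any mouse, in that order.

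All 12 peptide-degrading enzymes were tested, 5 with positive and 7 with negative fold changes, a median of -0.069 and 0 called. *Ide*, insulin-degrading enzyme, was the highest at 18.2 ± 2.55 CPM per kb, ahead of *Ece1*, endothelin-converting enzyme, at 12.9 ± 0.914 and *Lnpep*, an aminopeptidase of oxytocin and vasopressin, at 11.6 ± 1.70 CPM per kb. *Lnpep* was at 146, 120.3, 184 and 152 CPM in *Ager*-deleted mice and 163, 178, 187 and 188 CPM in controls, a log2 fold change of -0.25 (edgeR's exact test, unadjusted p = 0.0486, adjusted p = 1). *Dpp4*, dipeptidyl peptidase, had the most negative fold change of the list, -1.32 (edgeR's exact test, unadjusted p = 0.0244, adjusted p = 1). Its values were 0.864, 1.59, 1.16 and 1.21 CPM and 1.04, 1.95, 1.30 and 7.76 CPM. The value of 7.76 CPM was that of control E6732, which also held the liver transcripts, and the other 7 mice were at 0.864 to 1.95 CPM; their part in the difference was not tested. *Prep* and *Thop1*, enzymes that cut short peptides, named after their values were seen, were the 2 of 12 in this list whose genotypes did not overlap, where 3.88% of all genes tested did not. *Prep* was at 33.8, 33.96, 36.4 and 37.4 CPM and 33.7, 31.0, 33.3 and 33.7 CPM, and *Thop1* at 33.1, 31.9, 32.5 and 35.1 CPM and 30.9, 27.5, 28.8 and 31.5 CPM, with log2 fold changes of 0.11 and 0.16 (edgeR's exact test, adjusted p = 1 for both). Among the genes named from the 4 lists, *Uts2*, *Agrp*, *Pmch*, *Pcsk1n*, *Resp18*, *Ece1*, *Dpp4* and *Prep* are overlapped by genes on the other strand, and *Agrp*, *Ide* and *Lnpep* by genes on their own.

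**Figure D5:**
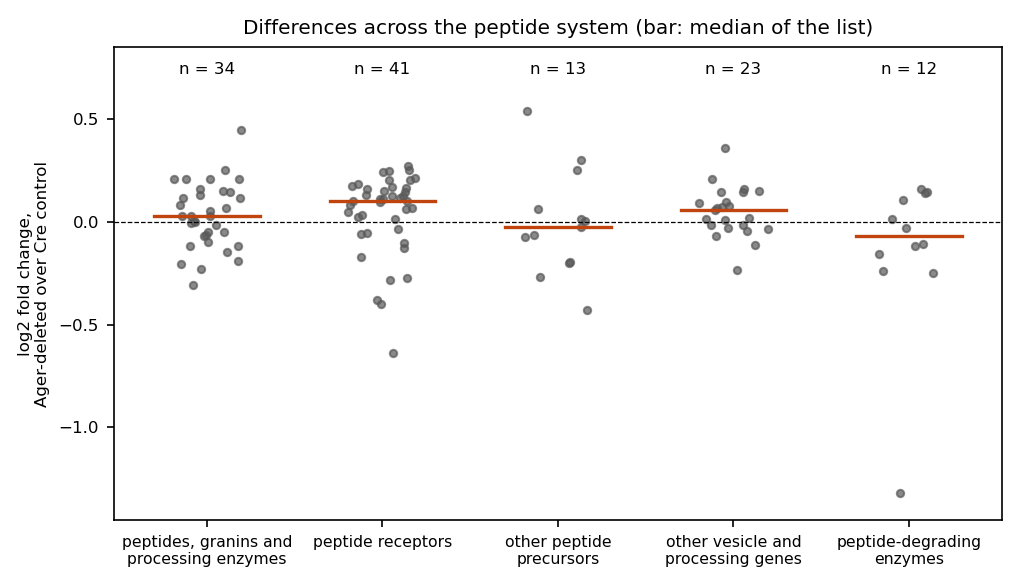
Log2 fold change of *Ager*-deleted over Cre control mice for each tested gene of the 34 and of the 4 further lists, with the median of each list as a bar. Points scatter on both sides of 0 in every list, and the point at -1.32 is *Dpp4*.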

How the data were processed

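RNA-seq of polyadenylated RNA from lumbar cord was analysed in 8 mice, 4 per genotype as labelled; each is a separate animal. The authors trimmed reads (Trimmomatic 0.36), aligned them to mm10 (STAR 2.7.3a), counted read pairs per GENCODE gene (featureCounts, Subread 1.6.3) and deposited raw counts. The authors also deposited log2 TMM-normalized CPM, used only to check the filter and scaling (largest difference 4.78e-06); column names gave the mouse IDs. No pair of libraries was alike within sampling noise (chi-square per degree of freedom 17.3 to 131 over 28 pairs).

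Low genes were removed with filterByExpr (at least 10 counts) and the rest normalized by TMM and tested with exactTest after estimateDisp without a design matrix (edgeR 4.0.16, R 4.3.3), with Benjamini-Hochberg adjustment over 19470 genes and a threshold of 0.05. Fold changes are from that test; standard errors and 95% intervals are from the quasi-likelihood fit. Values of log2(CPM + 1) per mouse, or their mean over a marker list, were compared by exact two-sided permutation (70 assignments). Alternatives were the quasi-likelihood test, common and tagwise dispersions, DESeq2 1.42.0, limma-voom (limma 3.58.1), other scalings and filters, a skeletal muscle covariate and each mouse left out; the fit with 2 controls was added after seeing the data. On simulated data in which 200 of 19265 genes were set 1.5 log2 units apart, the exact test found 199 of them and 30 others, and the quasi-likelihood test 197 and 10.

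The 34 genes and all lists were chosen with earlier results of these data known. Genes named are the 34, *Ager*, members of the further lists with an unadjusted p under 0.05 in the exact test, the 3 highest of each list per kb, and markers beside a result. *Sstr1*, *Prep*, *Thop1* and the hypothalamic precursors (*Agrp*, *Gnrh1*, *Avp*, *Oxt*, *Hcrt* and *Pmch*) fall outside this rule and were named after their values were seen. Positions and exon lengths are from GENCODE M21 (GRCm38, the assembly mm10 names), matched by symbol; promoters are from RefSeq (GRCm38.p6).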

Additional observations from a re-analysis of the deposited data

Results flagged for a closer look

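In 4 of the 68 sets of 4 mice examined (34 genes in each genotype), 1 mouse was far from the others of its genotype by Dixon's criterion, which chance meets in about 1 in 20 sets. *Tac1* was at 16.9 CPM in *Ager*-deleted mouse E1776, against 24.7 to 26.0 CPM in the other *Ager*-deleted mice. *Pomc* was at 1.73 CPM in the same mouse, against 0.875 to 0.970 CPM. *Cck* was at 16.0 CPM in *Ager*-deleted mouse E5248, against 20.4 to 21.2 CPM. *Pam* was at 169.5 CPM in control E5386, against 194 to 195 CPM in the other controls.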

How the results depend on the processing

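None of the 34 genes was called under any alternative run. The number of all genes called, 14 in the exact test, was 1 in the quasi-likelihood test, 78 with common and tagwise dispersions, 9 with a minimum of 30 counts, 25 with DESeq2, 1 with limma-voom, 1 with the muscle covariate, 67 with controls E6578 and E6732 only, and 3 to 98 with 1 mouse left out (3 without E5231, 53 without E5248, 8 without E5568, 72 without E5386, 8 without E5642, 98 without E6578 and 89 without E6732); why it moved was not tested. Fold changes near 0 changed sign: *Gal* to -0.0019 with relative log expression and -0.0011 with DESeq2; *Grp* to 7.52e-05 in the quasi-likelihood test, 0.0048 with the upper quartile, 0.024 with library size only, 0.0025 without the filter and 0.069 with the muscle covariate; *Scg3* to 0.020 with library size only and 0.072 with the muscle covariate; and *Cpe* to 0.012 with library size only. With controls E6578 and E6732 only, the sign changed for *Grp* (0.052), *Penk* (-0.0050), *Scg2* (-0.0073), *Scg3* (0.076) and *Pcsk2* (-0.0041), while *Ucn* was at 0.0081, *Nppc* at 0.020, *Chga* at 0.035, *Pam* at 0.014 and *Uts2b* at -0.44. Leaving out 1 mouse gave log2 fold changes of -0.27 to 0.053 for *Calca*, -0.055 to 0.16 for *Tac1*, -0.11 to 0.15 for *Gal*, -0.010 to 0.26 for *Nmb*, -0.020 to 0.14 for *Tac2*, -0.044 to 0.046 for *Grp*, -0.26 to 0.027 for *Cartpt*, -0.46 to 0.19 for *Uts2b*, -0.049 to 0.10 for *Penk*, -0.13 to 0.020 for *Pdyn*, -0.040 to 0.11 for *Scg2*, -0.085 to 0.066 for *Scg3*, -0.23 to 0.074 for *Pcsk1* and -0.067 to 0.028 for *Cpe*. The other genes kept their sign, many moving by more than 1.5 times, with -0.29 to -0.10 for *Calcb*, -0.21 to -0.039 for *Adcyap1*, -0.36 to -0.092 for *Vip*, 0.040 to 0.21 for *Nppc*, 0.11 to 0.32 for *Sst*, 0.15 to 0.38 for *Npy*, 0.17 to 0.29 for *Cck*, -0.22 to -0.11 for *Nts*, -0.40 to -0.22 for *Nmu*, -0.39 to -0.034 for *Crh*, 0.060 to 0.28 for *Trh*, 0.13 to 0.34 for *Ucn*, -0.12 to -0.012 for *Pthlh*, 0.15 to 0.63 for *Pomc*, 0.12 to 0.33 for *Pnoc*, 0.11 to 0.20 for *Vgf*, 0.074 to 0.19 for *Chga*, 0.10 to 0.14 for *Chgb*, 0.026 to 0.14 for *Pcsk2* and 0.012 to 0.12 for *Pam*. The count of genes without overlap, 1, was 0 with relative log expression. The dorsal horn score differed by 0.064 to 0.14 and the motor neuron score by -0.21 to -0.025 with 1 mouse left out; the former reached p = 0.0286 (exact permutation test) only without E5248. No paired analysis was possible because the labels carry mouse IDs only, which pair no mice across genotypes. Depth limits genes at few counts, such as *Ucn* at 14 to 24 counts per mouse.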
